A study of Mus musculus with 10 samples.

Results

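The circadian clock genes were followed in the tibialis anterior (TA), the shin muscle, of 4 mice without a tumor and 6 mice with Lewis Lung Carcinoma (LLC), a transplanted mouse lung cancer line that causes the wasting syndrome cachexia. The 10 genes were chosen by name as the core loop of the clock: the positive arm (Clock and Arntl, also called Bmal1), the negative arm (Per1, Per2, Per3, Cry1, Cry2, Nr1d1 and Nr1d2) and the output gene Dbp. They are 10 of the 39179 Ensembl gene identifiers listed for each muscle. Each symbol matched 1 identifier, and all 10 genes passed the filter on low counts. The LLC group received LLC cells under the skin of both flanks. The Control group received phosphate-buffered saline (PBS) at the same sites. No allele or transgene was involved in either group, and no drug was part of the comparison. Per the study's methods, the mice were killed under ketamine and xylazine anesthesia before the muscles were taken. The sample labels give strain C57BL/6J, injection at 10 weeks of age and 23 days of tumor growth, whereas the series text gives C57BL/10 males of 8 weeks studied after 22 days, and the sources used here do not settle which is right. Muscles came from separate mice, each with 1 library of total RNA, and per the study's methods the LLC mice were survivors of the whole period. The hour of day at which each muscle was dissected is not given in the sources used here.

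In the mammalian clock, the proteins CLOCK and BMAL1 bind as a pair to E-box sequences and switch on the Per and Cry genes, whose proteins return to the nucleus and inhibit that pair. A second loop uses the nuclear receptors REV-ERB alpha and beta (Nr1d1 and Nr1d2), which are also E-box targets and repress Arntl through RORE sequences, against the ROR receptors that activate it. The factor DBP, made from another E-box target, activates genes that carry a D-box. In skeletal muscle this loop runs in the fibers themselves and is known to time glucose and lipid use, so the transcripts of the arms rise and fall at different hours.

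The elements that tie the arms together were read in the RefSeq promoter windows of build GRCm38.p6, which reach from 250 bases before to 50 bases after each transcript start. A window was found for 9 of the 10 genes, and Per2 had none in the table used. Both strands were searched for the E-box CACGTG, the D-box TTACGTAA or TTATGTAA, and the RORE consensus, an A/T-rich stretch followed by GGTCA. The sequences below show the matches found in the clock genes, on the strand of the gene, with the element in capitals, and none of them overlaps another. The windows of Clock, Cry2, Nr1d1, Nr1d2 and Dbp held none of these elements. The Per1 E-box lies at chr11:69098771-69098800 (plus strand). It begins at -166 from the transcript start of 1 of the 2 Per1 windows, a start inside the gene. The Cry1 E-box lies at chr10:85185097-85185126 (minus strand) and begins at -60. Both D-boxes lie upstream of Per3, at chr4:151044852-151044881 and chr4:151044805-151044834 (minus strand), and begin at -205 and -158. The RORE lies in Arntl at chr7:113207528-113207557 (plus strand) and begins at base 27 of the transcript.
Per1 E-box: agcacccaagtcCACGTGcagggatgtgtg
Cry1 E-box: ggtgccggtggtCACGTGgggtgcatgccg
Per3 D-box, upstream: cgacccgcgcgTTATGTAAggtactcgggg
Per3 D-box, downstream: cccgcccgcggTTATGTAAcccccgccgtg
Arntl RORE: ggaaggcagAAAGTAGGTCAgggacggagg
Of all 32851 windows in the table, 7.15% held the E-box, 1.06% held a D-box and 0.384% held the RORE. A match describes the letters only, and these windows leave out distal and intronic elements.

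The deposited values were raw read counts, compared here as CPM, the standard count unit that corrects for library size, with library totals scaled by edgeR's TMM factors. Totals ran from 16693209 (LLC 1) to 21303084 (Control 2) counts per muscle, and 3 counts, taken as the limit of detection, equalled 0.141 to 0.180 CPM before the TMM scaling. Mitochondrially encoded genes took 28.4 to 30.7% of counts in Control and 22.0 to 27.9% in LLC, lowest in LLC 1. The same muscle had a scaling factor of 1.17, against 0.930 to 1.07 elsewhere, so the main results that rest on it are given with and without it. The summed CPM of 5 muscle fiber markers, among them Acta1 and Ckm, was 94464 to 100638 in Control and 62081 (LLC 1) to 106605 in LLC, and none of these markers was past the threshold.

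LLC and Control muscles were compared gene by gene, to ask whether the clock loop is altered in wasting muscle, and no difference in the 10 clock genes was large enough, given the spread between mice, to pass the test. None of the 10 genes was past the threshold of an adjusted p of 0.05 and a 1.5-fold change in edgeR's quasi-likelihood test, beside 5.63% of the 12690 genes tested (1.65% higher and 3.99% lower in LLC). By adjusted p alone it was also none, beside 6.99% of all genes. DESeq2 also called none (8.29% of all genes), as did limma voom. At an unadjusted p of 0.05 the count was 2 of 10 (Per1 and Cry2, both higher in LLC), beside 27.4% of all genes. The fitted log2 fold change was above 0 for 5 of the genes and below 0 for the other 5, and the median size was 0.15, beside 0.22 over all genes tested. Not 1 of the 10 separated the groups without overlap, beside 16.0% of all genes. For 3 of them (Clock, Cry1 and Nr1d2) the 95% interval lay within 1.5-fold in either direction. For the other 7 it reached past 1.5-fold on at least 1 side, so a missed threshold does not show that the groups were alike.

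Per length of transcript and among the 10 clock genes alone, the nuclear receptors Nr1d1 and Nr1d2 were the most abundant in TA muscle and Per2 the least. In RPKM, the CPM divided by the exonic length in kilobases, Control levels were 44.9 ± 6.94 for Nr1d1 (SD, n = 4), 23.0 ± 4.08 for Nr1d2 and 12.97 ± 5.60 for Dbp. They were followed by Per1 at 5.95 ± 1.70, Cry2 at 4.72 ± 1.17, Cry1 at 3.51 ± 0.295, Per3 at 2.73 ± 1.06, Arntl at 2.47 ± 0.955, Clock at 2.01 ± 0.210 and Per2 at 1.34 ± 0.808. Neighbors in this order had separate Control ranges only at the steps from Nr1d1 to Nr1d2 and from Dbp to Per1, and the other neighbors did not differ beyond their spread. In LLC the order of the means ran Nr1d1, Nr1d2, Per1, Cry2, Dbp, Cry1, Arntl, Per3, Clock and Per2, with Dbp at 8.25 ± 4.04 RPKM (SD, n = 6) behind Per1 at 11.7 ± 5.42 and Cry2 at 10.2 ± 9.38.

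**Figure D1:**
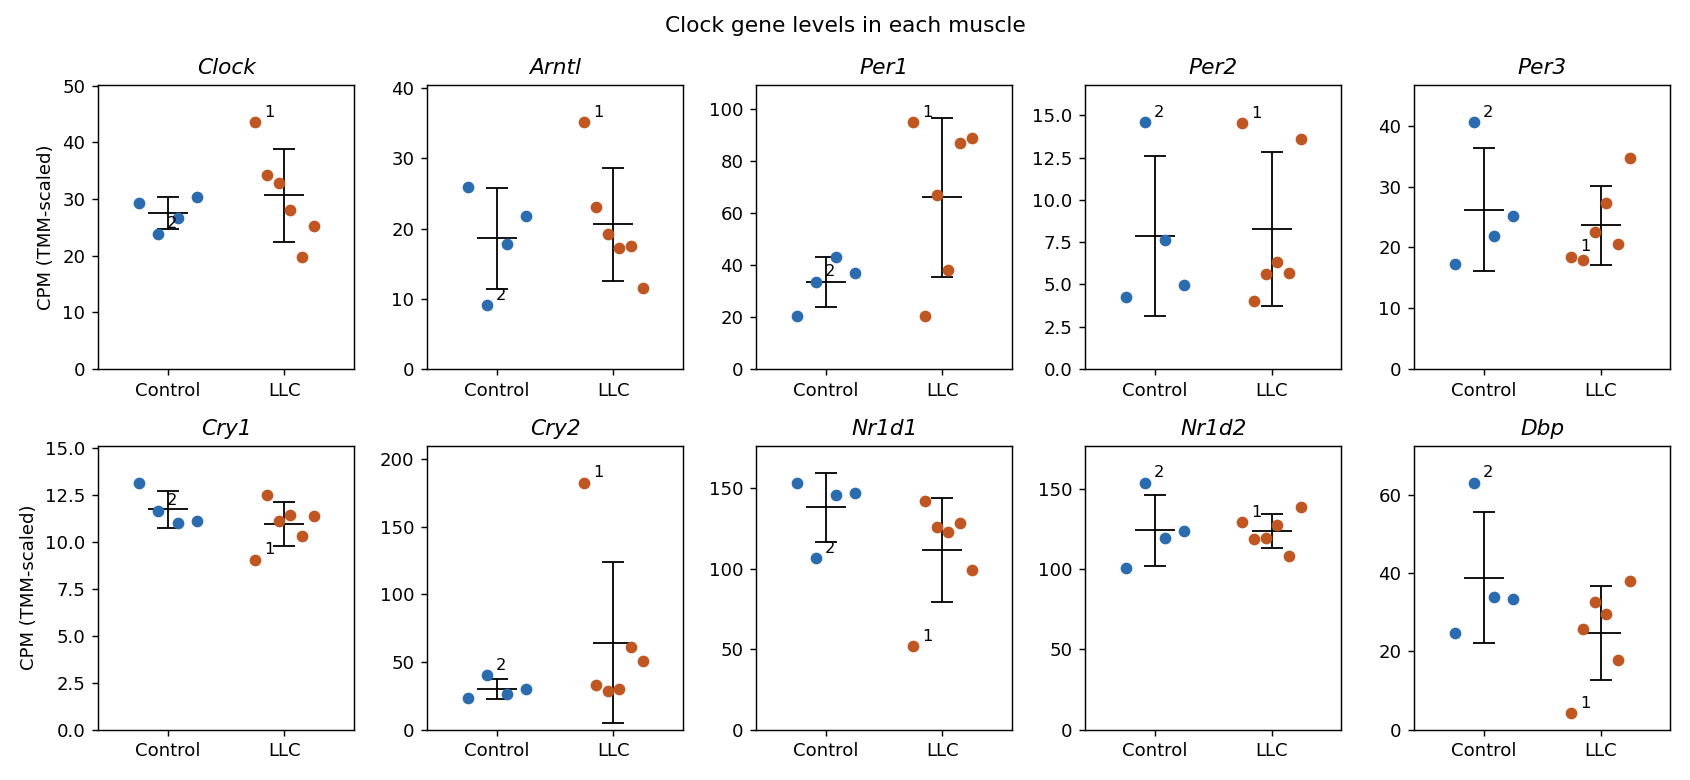
CPM of each clock gene in the 4 Control (blue) and 6 LLC (orange) muscles, with the mean and SD in black and the numbers of Control 2 and LLC 1 printed. The groups overlap for every gene, and LLC 1 is the highest or lowest LLC muscle for 8 of the 10.

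Neither gene of the positive arm was past the threshold, and the interval of Arntl included a rise past 1.5-fold. Clock (ENSMUSG00000029238, chr5:76209868-76304792, minus strand), which encodes the partner of BMAL1, was at 29.3, 23.9, 26.7 and 30.3 CPM in Control 1 to 4. In LLC it had a lowest value of 19.7, a median of 30.5 and a highest of 43.6 CPM, so the LLC muscles lay on both sides of the Control range, 3 above and 1 below. The log2 fold change was 0.15 ± 0.19 (SE; 95% interval -0.25 to 0.56; adjusted p = 0.605). Arntl (ENSMUSG00000055116, chr7:113207465-113314126, plus strand), which encodes BMAL1, was at 25.8, 9.04, 17.8 and 21.8 CPM in Control 1 to 4. In LLC 1 to 6 it was at 35.2, 23.0, 19.2, 17.2, 17.5 and 11.5 CPM. Control 2 was the lowest of all 10 muscles and LLC 1 the highest, and the other 5 LLC values lay inside the Control range. The log2 fold change of Arntl was 0.15 ± 0.31 (SE; 95% interval -0.54 to 0.83; adjusted p = 0.779), and its sign depended on single mice: it was -0.08 without Control 2 and -0.06 without LLC 1.

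The Period genes, the inhibitors whose proteins close the loop, did not move as a unit. Per1 (ENSMUSG00000020893, chr11:69095217-69109960, plus strand), which is also induced by acute signals such as glucocorticoids, was at 20.4, 33.5, 43.0 and 37.0 CPM in Control 1 to 4 and at 95.03, 20.3, 67.0, 38.2, 86.8 and 88.9 CPM in LLC 1 to 6. LLC 1, LLC 3, LLC 5 and LLC 6 exceeded every Control muscle, LLC 4 lay inside the Control range and LLC 2 was the lowest of the 10. Control averaged 33.5 ± 9.56 CPM (SD, n = 4) and LLC 66.0 ± 30.5 (SD, n = 6), for a log2 fold change of 0.98 ± 0.39 (SE; 95% interval 0.14 to 1.82). With an unadjusted p of 0.0266 and an adjusted p of 0.135 in edgeR's test (0.0613 in DESeq2), this was not past the threshold. In voom the fold change was 0.55, and with a block for the replicate number it was 0.53. LLC 5 and LLC 6 share no number with a Control, so the block fit takes nothing from them for the group difference. Leaving out LLC 2 put Per1 past the threshold, at a log2 fold change of 1.18 and an adjusted p of 0.0317. Per2 (ENSMUSG00000055866, chr1:91415982-91459324, minus strand), the least abundant of the set, was at 4.24, 14.6, 7.62 and 4.98 CPM in Control 1 to 4. In LLC 1 to 6 it was at 14.6, 4.01, 5.62, 6.30, 5.65 and 13.6 CPM. Control 2, LLC 1 and LLC 6 therefore formed the high end of Per2 regardless of group, the log2 fold change was 0.07 ± 0.43 (SE; 95% interval -0.86 to 1.01), and the adjusted p was 0.926. Per3 (ENSMUSG00000028957, chr4:151003652-151044665, minus strand), the Period gene with both D-boxes shown above, was at 17.3, 40.6, 21.8 and 25.1 CPM in Control 1 to 4. In LLC it ranged from 18.0 over a median of 21.6 to 34.8 CPM, inside the Control range throughout, with LLC 6 the highest. Its log2 fold change was -0.15 ± 0.24 (SE; 95% interval -0.68 to 0.38; adjusted p = 0.703), and 0.14 without Control 2.

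The paired Cryptochromes, which hold CLOCK and BMAL1 inactive on DNA together with the PER proteins, behaved unlike each other. Cry1 (ENSMUSG00000020038, chr10:85131700-85185064, minus strand) had the smallest Control SD of the 10 genes on the log2 CPM scale (0.12), at 13.1, 11.7, 10.98 and 11.1 CPM in Control 1 to 4. In LLC it had a lowest value of 9.05 in LLC 1, a median of 11.2 and a highest of 12.5 CPM, and 2 LLC muscles lay below the Control range. The log2 fold change was -0.10 ± 0.11 (SE; 95% interval -0.33 to 0.13; adjusted p = 0.554). Cry2 (ENSMUSG00000068742, chr2:92403646-92434043, minus strand) was at 23.0, 40.1, 26.6 and 29.7 CPM in Control 1 to 4 and at 182, 32.9, 28.8, 30.1, 60.8 and 50.6 CPM in LLC 1 to 6. LLC 1 stood far above the rest, LLC 5 and LLC 6 were also above every Control muscle, and LLC 2, LLC 3 and LLC 4 lay inside the Control range. The log2 fold change was 1.11 ± 0.51 (SE; 95% interval 0.00 to 2.21) with an unadjusted p of 0.0498 and an adjusted p of 0.182 in edgeR's test. Without LLC 1 it was 0.45. In voom it was 0.32. With the replicate block, which takes nothing from LLC 5 and LLC 6 for the group difference, it was 0.63. Exons of Cry2 share 295 bases with the antisense transcript D930015M05Rik, and whether the counting kept reads of the pair apart there was not tested.

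The REV-ERB receptors, the repressors of Arntl, were not called in either direction. Nr1d1 (ENSMUSG00000020889, chr11:98767932-98775333, minus strand) was at 153, 106, 146 and 147 CPM in Control 1 to 4 and at 52.0, 142, 126, 123, 128 and 99.0 CPM in LLC 1 to 6. Control 2 was the low Control muscle, LLC 1 and LLC 6 were below the Control range, and the other 4 LLC muscles were inside it. Control averaged 138 ± 21.4 CPM (SD, n = 4) and LLC 112 ± 32.4 (SD, n = 6), for a log2 fold change of -0.30 ± 0.23 (SE; 95% interval -0.81 to 0.20; adjusted p = 0.393). Without LLC 1 it was -0.15. Of the Nr1d1 exons, 263 bases (8.55% of their length) overlap the antisense gene Thra, the thyroid hormone receptor alpha, which was at 54.8 to 62.3 CPM in Control and 37.6 (LLC 1) to 60.7 in LLC (log2 fold change -0.20 ± 0.13, SE; adjusted p = 0.319; -0.12 without LLC 1). Nr1d2 (ENSMUSG00000021775, chr14:18204054-18239127, minus strand) was at 101, 154, 119 and 124 CPM in Control 1 to 4. In LLC it ranged from 108 over a median of 124 to 139 CPM, entirely within the Control range. Its log2 fold change of -0.01 ± 0.12 (SE; 95% interval -0.27 to 0.25; adjusted p = 0.972) was the smallest of the 10 genes.

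Dbp (ENSMUSG00000059824, chr7:45705088-45710203, plus strand), the PAR-domain factor that reads out the loop, had the lowest fold change of the set in the full set of mice, but not without Control 2, and varied too widely between mice for a call. It was at 24.8, 63.2, 34.0 and 33.3 CPM in Control 1 to 4 and at 4.22, 25.7, 32.7, 29.5, 17.9 and 38.0 CPM in LLC 1 to 6. LLC 1 and LLC 5 were below every Control muscle, the other 4 LLC muscles were inside the Control range, and Control 2 was the highest of the 10. Control averaged 38.8 ± 16.8 CPM (SD, n = 4) and LLC 24.7 ± 12.1 (SD, n = 6), with a log2 fold change of -0.66 ± 0.45 (SE; 95% interval -1.63 to 0.32; adjusted p = 0.345). It was -0.32 without Control 2, when Nr1d1 was lower at -0.41, and -0.087 without both LLC 1 and Control 2. Exons of Dbp overlap the antisense gene Sphk2, a sphingosine kinase, over 539 bases (18.0% of their length).

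The arms were then set against each other in each muscle. Each arm was scored by averaging log2 CPM over its genes and subtracting the Control mean, so 0 is the Control average, and the Control scores are deviations from their own mean. The positive arm (2 genes) was at 0.33, -0.57, 0.00 and 0.23 in Control 1 to 4 and at 0.84, 0.36, 0.20, 0.01, -0.23 and -0.35 in LLC 1 to 6. The negative arm (7 genes) was at -0.31, 0.32, 0.02 and -0.03 in Control 1 to 4 and at 0.45, -0.24, 0.05, 0.02, 0.21 and 0.48 in LLC 1 to 6. In Control 1, Control 2, LLC 2, LLC 5 and LLC 6 the arms lay well apart on opposite sides of 0. In Control 3, LLC 3 and LLC 4 they lay close together, in Control 4 the positive arm was above 0 and the negative arm near it, and in LLC 1 both scores were high. The negative arm of LLC 1 was uneven, at 1.14 for the Cryptochromes, 0.72 for the Period genes and -0.66 for the REV-ERB receptors. The LLC mean was 0.14 ± 0.43 for the positive arm (SD, n = 6) and 0.16 ± 0.27 for the negative arm, and without LLC 1 these means were 0.00 ± 0.30 and 0.10 ± 0.26. With each mouse left out and the libraries scaled again, the positive arm ran from -0.05 (without Control 2) to 0.25 (without Control 1) and the negative arm from 0.056 (without Control 1) to 0.27 (without Control 2).

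Within the negative arm the branches had LLC means with overlapping spreads. The Period score averaged 0.27 ± 0.56 in LLC (SD, n = 6), the Cryptochrome score 0.34 ± 0.44 and the REV-ERB score -0.18 ± 0.24. Without LLC 1 these means were 0.18 ± 0.57, 0.18 ± 0.22 and -0.08 ± 0.06. The scores average genes that moved apart between mice. After removal of each group's mean, log2 CPM of Nr1d1 and Nr1d2 had a Pearson r of -0.51 (n = 10), or -0.85 without LLC 1. For Cry1 and Cry2 it was -0.80, or -0.51 without LLC 1. The output Dbp averaged -0.84 ± 1.16, from -3.08 in LLC 1 to 0.06 in LLC 6, and -0.39 ± 0.41 without LLC 1. As the genes were selected with earlier results of these data known, these scores are descriptions without a test.

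**Figure D2:**
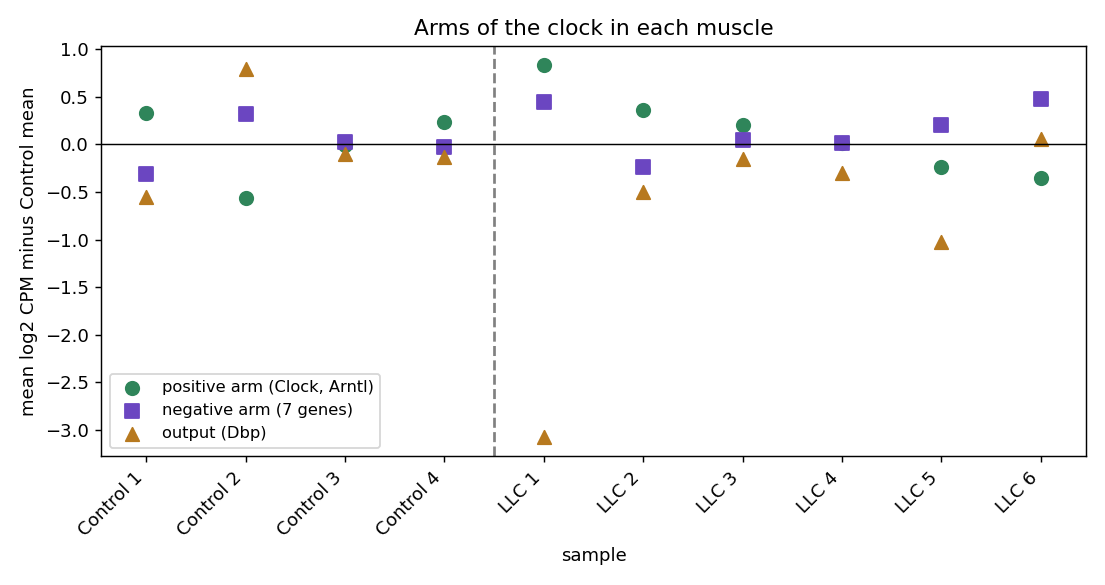
Mean log2 CPM of the positive arm (circles), the negative arm (squares) and the output Dbp (triangles) in each muscle, relative to the Control mean at 0. The arms sit well apart on opposite sides of 0 in Control 1, Control 2, LLC 2, LLC 5 and LLC 6. In LLC 1 both mean scores are raised, the negative one with its REV-ERB genes at -0.66, while Dbp is at -3.08.

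The larger pattern lay between mice of the same group. Control 1 and Control 2 were at opposite ends of the Control values for 7 of the 10 genes, beside 17.0% of all genes tested. Control 1 was the highest or lowest Control muscle for 9 genes (46.9% of all genes) and Control 2 for 8 (51.0%). Control 1 was the Control muscle with the highest Arntl and Nr1d1 and the lowest Per2, Per3, Cry2, Nr1d2 and Dbp, and Control 2 was the reverse in each. Among the LLC muscles other than LLC 1, LLC 2 and LLC 6 were at opposite ends for 5 of the 10 genes, beside 8.60% of all genes, with LLC 2 highest in Arntl and Nr1d1 and lowest in all 3 Period genes and LLC 6 the reverse. LLC 6 was also the highest of these muscles in Nr1d2 and Dbp. The log2 ratio of Per2 to Arntl CPM was -2.61, 0.69, -1.22 and -2.13 in Control 1 to 4 and -1.27, -2.52, -1.78, -1.45, -1.63 and 0.24 in LLC 1 to 6. It was thus above 0 in Control 2 and LLC 6 and below -1 in the other 8 muscles of both groups. These end muscles were picked after their values were seen.

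**Figure D3:**
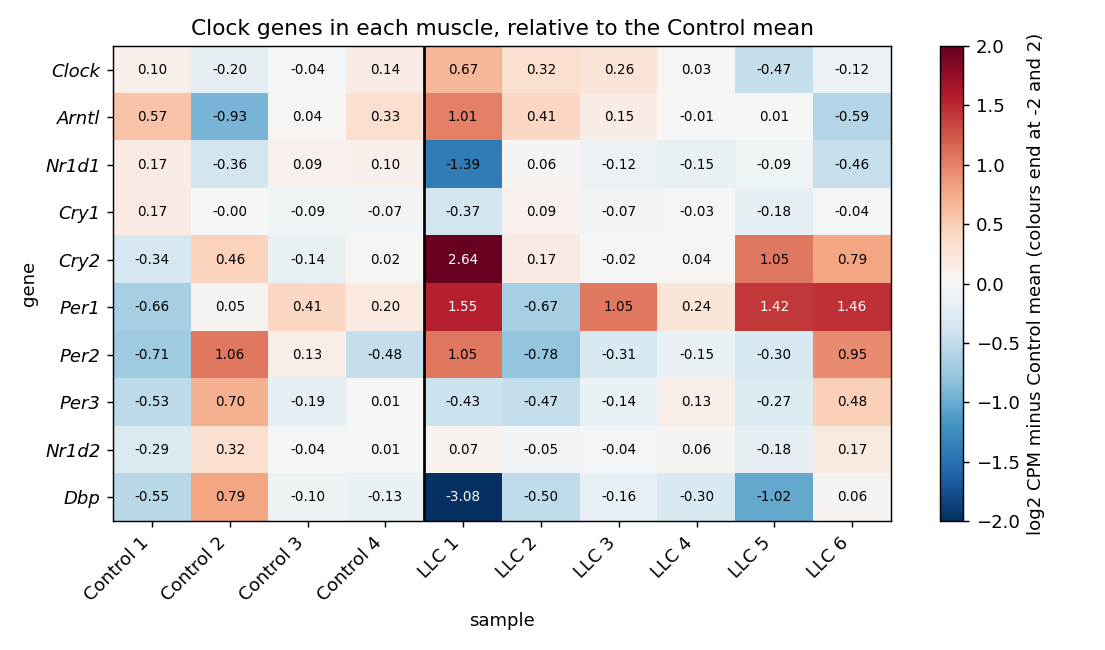
Log2 CPM of each clock gene minus its Control mean in the 10 muscles, with Arntl and Nr1d1 placed near the top and the Period genes, Nr1d2 and Dbp below. Control 2 and LLC 6 share low Arntl and Nr1d1 with high Per2 and Per3, Control 1 and LLC 2 show the reverse, and LLC 1 combines Arntl at 1.01 and Cry2 at 2.64 with Nr1d1 at -1.39 and Dbp at -3.08.

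Correlations of log2 CPM after removal of each group's mean described how closely the genes kept this order, on libraries that all genes share. With Arntl, Per3 had a Pearson r of -0.89 over the 10 muscles (n = 10) and -0.92 without LLC 1 (n = 9). Per2 had an r of -0.42 with LLC 1 and -0.97 without it (Spearman's rho -0.45 and -0.93). Nr1d1 had an r of -0.15 with LLC 1 and 0.96 without it (rho 0.93 without it). The relations of Per2 and Nr1d1 to Arntl were thus weak in the full set and close in the 9 muscles other than LLC 1. Nr1d2 and Dbp had r values of -0.86 and -0.80 to Arntl without LLC 1, and Clock had an r of 0.55. Over all 10 muscles, 35.3% of genes tested had an r to Arntl at least as large in size as that of Per2. The share was 78.3% for Nr1d1, 0.0709% for Per3 and 0.725% for Dbp. Without LLC 1 these shares were 0.0158% for Per2, 0.0236% for Nr1d1, 0.134% for Per3 and 1.43% for Dbp. Leaving out Control 2 as well (n = 8) gave an r to Arntl of -0.99 for Per2, -0.85 for Per3, 0.92 for Nr1d1, -0.67 for Nr1d2 and -0.54 for Dbp. Per3 and Nr1d2 had an r of 0.93 to each other without LLC 1, and Nr1d2 and Dbp one of 0.94.

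LLC 1 lay off that line. It had the highest Arntl and Clock of the 10 muscles together with Per2 as high as in Control 2, while its Nr1d1 and Dbp were the lowest of the 10. The log2 ratio of Dbp to Arntl CPM was -0.06, 2.81, 0.93 and 0.61 in Control 1 to 4 and -3.06, 0.16, 0.77, 0.78, 0.04 and 1.72 in LLC 1 to 6. The log2 ratio of Nr1d1 to Arntl was 0.56 in LLC 1, against 2.57 to 3.56 in Control and 2.62 to 3.10 in the other LLC muscles. LLC 1 was the highest or lowest LLC muscle for 8 of the 10 clock genes, beside 66.1% of all genes tested. Its Nr1d1 and Dbp also stood apart from the other LLC muscles by Dixon's gap ratio, as did the Nr1d1 of Control 2 among the Control muscles, beside 16.1% of all genes in LLC and 5.03% in Control. It was also the library with the lowest total, the lowest mitochondrial share and the lowest summed muscle fiber markers, and the part of these in its clock values was not tested.

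**Figure D4:**
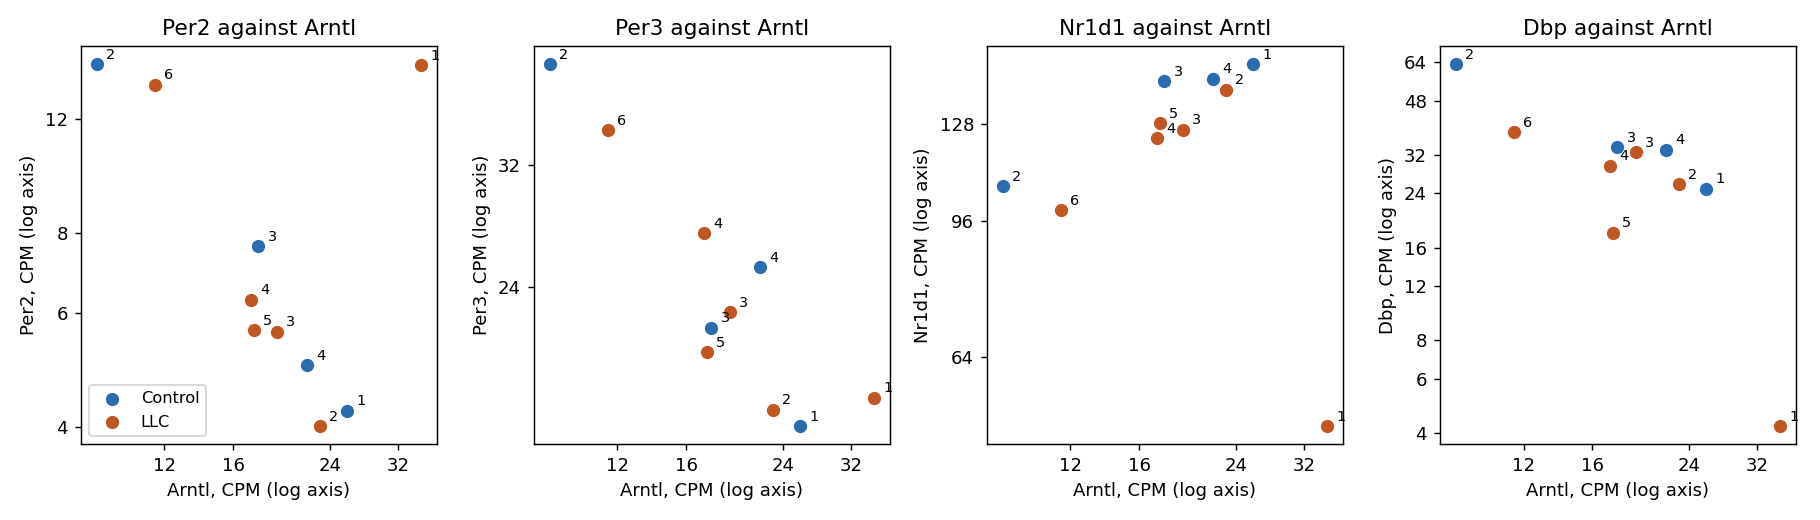
CPM of Per2, Per3, Nr1d1 and Dbp against CPM of Arntl on log axes, 1 point per muscle with its replicate number, Control in blue and LLC in orange. Both groups lie along the same falling line for Per2 and Per3 and rising line for Nr1d1, apart from LLC 1, which lies off the line for Per2 and Nr1d1.

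The spread between mice was also compared gene by gene. On the log2 CPM scale, 6 of the 10 genes had the larger SD in LLC, beside 85.1% of all genes tested. Without LLC 1 it was 3 of the 10, but the share of all genes without LLC 1 was not computed. Cry2 had an SD of 0.34 in Control and 1.01 in LLC (0.48 without LLC 1), and Per1 had 0.46 and 0.88 (0.91 without LLC 1). Dbp had 0.56 and 1.16, but 0.41 in LLC without LLC 1, below Control. Nr1d2 went the other way, at 0.25 in Control and 0.12 in LLC, as did Arntl at 0.66 and 0.53.

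Genes outside the set whose levels tracked those of 4 clock genes most closely were also listed. By Pearson r of log2 CPM after removal of the group means (n = 10, 10272 other genes searched), the closest to Arntl were Parva, which encodes an actin-binding focal adhesion protein, at 0.97, the kinase gene Sik3 at 0.92 and the transporter gene Abcb6 at 0.91. For Per2 they were Zscan29 at 0.94, Yae1d1 at 0.93 and Zmym2 at 0.91. For Nr1d1 they were the growth factor gene Vegfb, Ushbp1 and the adaptor subunit gene Ap1b1, all at 0.98. For Dbp they were Enpp5 at 0.98, Mylk4 at 0.97 and Crot, which encodes a peroxisomal carnitine acyltransferase, at 0.97. Without LLC 1 (n = 9) the gene closest to Dbp was Hlf, which encodes a PAR-domain factor of the same family, at 0.95, and Parva was among the closest 3 of both Arntl (0.96) and Nr1d1 (0.96).

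Of 25 further genes of the clock read here, 23 had enough reads to be tested. None was past the threshold in edgeR's test or in DESeq2, beside 5.63% and 8.29% of all genes. At an unadjusted p of 0.05 in edgeR's test there were 5 of 23, all higher in LLC, beside 27.4% of all genes. By adjusted p alone it was 1 of 23 (Timeless), beside 6.99% of all genes. The groups did not overlap for 2 of 23 (Rora and Timeless), beside 16.0% of all genes. The fold change was above 0 for 13 and below 0 for 10. Rora, a ROR receptor that activates Arntl through ROREs, had the highest fold change of these in the full set of mice. It was at 68.4, 87.1, 63.7 and 76.0 CPM in Control 1 to 4 and at 261, 97.4, 87.8, 91.5, 111 and 110.3 CPM in LLC 1 to 6. All LLC values exceeded all Control values, LLC 3 by less than 1 CPM, and LLC 1 stood far above the rest. The log2 fold change was 0.78 ± 0.29 (SE; 95% interval 0.14 to 1.42; adjusted p = 0.122). Without LLC 1 it was 0.44 with an adjusted p of 0.0188, below the fold threshold and below Nfil3 at 0.53.

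The activators, repressors, kinases and outputs read here each held genes on both sides of 0. Among the activators the lowest fold change was that of Npas2, the stand-in for Clock, at -0.45 ± 0.37 (SE; adjusted p = 0.441; -0.78 without Control 2 and -0.28 without Control 1). It was at 1.01, 0.198, 0.919 and 0.931 CPM in Control 1 to 4, lowest in Control 2 as Arntl was. Among the repressors Nfil3, which competes with DBP at D-boxes, had the highest fold change at 0.63 ± 0.24 (adjusted p = 0.127) and Bhlhe41 the lowest at -0.54 ± 0.31 (adjusted p = 0.275; -0.33 without LLC 1). Timeless passed the adjusted p (0.0410) at 0.45 ± 0.12, below the fold threshold, with 6 of 6 LLC muscles above every Control. Among the kinases and ubiquitin ligases that set the stability of PER and CRY, Gsk3b was highest at 0.53 ± 0.21 (adjusted p = 0.128; 0.35 without LLC 1) and Fbxw7 lowest at -0.16 ± 0.14 (adjusted p = 0.478; -0.074 without LLC 1). Among the outputs Lonrf3 was highest at 0.67 ± 0.66 (adjusted p = 0.516), with LLC 1 at 3.65 CPM against at most 0.988 elsewhere (-0.25 without LLC 1), and Hlf lowest at -0.54 ± 0.26 (adjusted p = 0.199; -0.24 without Control 2). Hlf was at 8.58, 17.8, 9.08 and 9.97 CPM in Control 1 to 4, highest in Control 2 as Dbp was, and ranged from 4.17 in LLC 1 to 10.6 in LLC 6.

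Genes described as outputs of the muscle clock were also counted. Of 8, 1 rose and none fell past both thresholds, and 1 was called by DESeq2, beside 1.65% and 3.99% of all genes in edgeR and 8.29% in DESeq2. Pdk4, the kinase that shuts off pyruvate entry into the mitochondrial cycle, was at 604, 375, 640 and 649 CPM in Control 1 to 4 and at 1982, 580.3, 1405, 844, 2009 and 1139 CPM in LLC 1 to 6. The highest values were in LLC 1 and LLC 5, and 5 of the 6 LLC muscles exceeded every Control. The log2 fold change was 1.23 ± 0.33 (SE; adjusted p = 0.0480). Without any single Control muscle the adjusted p was 0.107 to 0.137, and without LLC 3, LLC 5 or LLC 6 it was 0.0693, 0.0967 and 0.0801. Slc2a4, the insulin-responsive glucose transporter GLUT4, had the lowest fold change at -0.58 ± 0.15 (adjusted p = 0.0431), just under 1.5-fold. Its values were 573, 559, 553 and 587 CPM in Control 1 to 4, and 295 to 479 in LLC with no overlap. Tbc1d1 and Hk2 were also below every Control in all 6 LLC muscles and under 1.5-fold. Their log2 fold changes were -0.55 ± 0.10 (SE, adjusted p = 0.00874 in edgeR's test) and -0.54 ± 0.14 (adjusted p = 0.0459). By adjusted p alone 4 of the 8 genes were called, beside 6.99% of all genes. The groups did not overlap for 3 of the 8, beside 16.0% of all genes.

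Because Per1 also answers to glucocorticoids, 6 genes induced by that hormone were read beside it. None was past the threshold in edgeR's test (5.63% of all genes), and 3 were at an unadjusted p of 0.05 (27.4% of all genes). All 6 had a fold change above 0, while DESeq2 called 1 (Tsc22d3, adjusted p 0.0156), beside 8.29% of all genes. Tsc22d3 and Fkbp5 were above every Control in all 6 LLC muscles, so 2 of the 6 genes had no overlap, beside 16.0% of all genes. Fkbp5 was at 1.79 ± 0.61 (SE, adjusted p = 0.0975 in edgeR's test). It was called in voom (0.75, adjusted p 0.0170) and without LLC 1 (0.91, adjusted p 0.0184). Ddit4, an inhibitor of growth signaling, was highest at a log2 fold change of 2.35 ± 0.86 (SE; adjusted p = 0.115 in edgeR's test; 0.95 in voom). With the replicate block, which takes nothing from LLC 5 and LLC 6 for the group difference, it was 1.02. Klf9, a zinc finger factor, was lowest at 0.11 ± 0.15 (adjusted p = 0.631 in edgeR's test). Ddit4 was at 3.44, 6.42, 15.7 and 11.2 CPM in Control 1 to 4 and at 133, 11.3, 18.9, 5.09, 88.2 and 23.8 CPM in LLC 1 to 6. The 4 LLC muscles in which Per1 exceeded every Control (LLC 1, LLC 3, LLC 5 and LLC 6) were those with the highest LLC values of Pdk4 and of 3 of the 6 glucocorticoid-responsive genes (Ddit4, Tsc22d3 and Sgk1) but not of Fkbp5, Klf9 or Zbtb16, a match looked for after the values were known. The part of such a hormone response in the Per1 values was not tested.

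Markers of other cell types moved between the groups, and in bulk muscle fewer cells of a type and less RNA per cell cannot be told apart. All 6 neutrophil markers rose, from a summed 0.689 to 1.93 CPM in Control to 31.2 to 68.3 in LLC, and all 6 fibroblast markers fell, from 251 to 321 CPM to 50.3 to 84.8. Of the erythroid markers 3 of 4 rose (48.3 to 71.5 CPM in Control, 78.1 to 124 in LLC). Of the endothelial markers 1 of 5 fell (264 to 334 CPM, then 247 to 288), and so did 1 of 6 macrophage markers (9.53 to 16.2, then 5.68 to 12.4), 2 of 4 satellite cell markers (4.11 to 4.79, then 2.61 to 3.63) and 1 of 4 Schwann cell markers (24.9 to 29.6, then 12.1 to 20.4). No lymphocyte marker had enough reads to be tested (0.642 to 0.767 CPM in Control, 0.335 to 0.756 in LLC), and no adipocyte marker was past the threshold (1.04 to 7.19 and 1.64 to 3.497). No marker was at 0 in every muscle, and the part of these cells in the clock values was not tested.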

How the data were processed

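Per the study's methods, strand-specific total RNA libraries of TA muscle were sequenced in 1 lane, and the authors mapped reads to mm10 with TopHat and counted them for genes with HTSeq, run on defaults per the methods (its version is not given in the sources used here, which do not name the strand option either). The authors deposited raw counts per Ensembl gene, which were not normalized. Of the 39179 identifiers, 37607 had a symbol and a place in GENCODE M21 (GRCm38), the source of gene coordinates and exon lengths; promoter windows came from RefSeq. Groups and replicate numbers came from the sample titles.

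Genes were filtered with filterByExpr (minimum count 10), scaled by TMM and tested with edgeR 4.0.16 (quasi-likelihood, group only, R 4.3.3), with Benjamini-Hochberg adjustment over 12690 genes. A call needed an adjusted p of 0.05 or less and 1.5-fold. Intervals are the fitted change ± SE scaled to 95%; log2 CPM used a prior count of 2. Alternatives were other scalings and filters, DESeq2 1.42.0 (the authors' test), limma 3.58.1 voom, robust dispersion, other thresholds, a block for the replicate number and leaving out each mouse. In the block fit LLC 5 and LLC 6 have no Control of the same number and add nothing to the group difference. The fits were tested on simulated data. Intervals and floors cover counting error or the spread between mice only. Pairs of libraries of 1 group differed beyond sampling noise (chi-square per degree of freedom 3.71 to 181).

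The members, lists and tests were chosen with earlier results of these data known. Named beside the 10 members were list genes past the threshold, the highest and lowest fold change of each role, Thra, and the 3 genes most like Arntl, Per2, Nr1d1 and Dbp. Timeless, Tbc1d1, Hk2 and Fkbp5 were added after their values were seen, as was leaving out LLC 1 and Control 2 together. A gene of the clock list is not reported here.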

Additional observations from a re-analysis of the deposited data

Results flagged for a closer look

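In 3 of 24 sets of values searched (10 clock genes and both arm scores in each group), 1 muscle lay so far from its group that the gap to its neighbor, divided by the whole range of the group, passed Dixon's 95% critical value; chance gives about 1 in 20, or 1.2 of 24. For Nr1d1 in Control the ratio was 0.858, set by Control 2 at 106 CPM below the other 3 muscles at 146 to 153. For Nr1d1 in LLC it was 0.641, set by LLC 1 at 52.0 CPM below the others at 99.0 to 142. For Dbp in LLC it was 0.655, set by LLC 1 at 4.22 CPM below the others at 17.9 to 38.0. Such gaps were found for 5.03% of all genes tested in Control and 16.1% in LLC.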

How the results depend on the processing

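Each gene's fit was repeated under 21 listed alternatives and 1 chosen after seeing the data (without LLC 1 and Control 2 together). Cry1, Cry2, Dbp, Nr1d1 and Per1 kept their direction in all 22. Without LLC 1 and Control 2 the log2 fold change was -0.29 for Arntl, -0.030 for Clock, 0.21 for Per3, 0.11 for Nr1d2, -0.0062 for Lonrf3, -0.087 for Dbp and -0.10 for Hlf. Nr1d2 was 0.0027 with median-of-ratios factors, 0.0028 with 1 count in any sample as the filter, 0.0026 in DESeq2, 0.032 in voom and 0.0100 with the replicate block. Per2 was -0.11 in voom and -0.044 with the replicate block, and Lonrf3 was -0.18 in voom. With an unadjusted p and 1.5-fold, 2 clock genes were higher, Per1 (0.98) and Cry2 (1.11); so were 2 other clock genes and 3 glucocorticoid-responsive genes. The glucocorticoid count was 1 in DESeq2 and 1 in voom. Of the other clock genes, 1 was called by adjusted p alone. Of the muscle clock outputs, 0 were higher with at least 10 counts in every sample, robust dispersion, the replicate block or without LLC 1 and Control 2; 2 were lower with upper-quartile factors, 1 in voom, 3 by adjusted p alone and 1 without LLC 1 and Control 2. Leaving out 1 mouse at a time gave -0.083 to 0.35 for Arntl, 0.03 to 0.25 for Clock, 0.80 to 1.18 for Per1, -0.16 to 0.56 for Per2, -0.31 to 0.14 for Per3, -0.13 to -0.04 for Cry1, 0.45 to 1.28 for Cry2, -0.41 to -0.15 for Nr1d1, -0.10 to 0.11 for Nr1d2, -0.82 to -0.32 for Dbp and -0.25 to 0.91 for Lonrf3. The counts then ran from 0 to 1 for clock genes (1 without LLC 2), 0 to 1 for other clock genes (Nfil3 without LLC 4), 0 to 1 higher and 0 to 2 lower for muscle outputs, and 0 to 2 for glucocorticoid-responsive genes. All-gene calls were 715, but 112 with the replicate block, 1052 in DESeq2, 475 with at least 10 counts in every sample, 1572 by unadjusted p with 1.5-fold and 415 to 966 with 1 mouse left out. The replicate numbers name different mice, and same-numbered mice did not deviate together (r -0.08 to 0.13), so the numbers do not pair the mice. The cause of these shifts was not tested. With 4 and 6 mice, the 95% interval lay within 1.5-fold for Clock, Cry1 and Nr1d2 alone.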
